A study of Homo sapiens with 6 samples.

Results

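The mRNA of 38 antioxidant, glutathione and thioredoxin genes was examined in BaF3-T315I cells with and without exposure to I13. The genes were taken by name from a list that covers the NRF2 sensor and its effectors, glutathione synthesis and recycling, glutathione peroxidases and transferases, the thioredoxin system, peroxiredoxins, catalase and superoxide dismutases, the pentose phosphate enzymes, and ferritin with haem breakdown. Of the 22413 genes in the deposited table, 37 bore a listed name, and 36 reached the mean level needed for a test. Gstm5 was not analysed here, and Prdx4, a peroxiredoxin of the endoplasmic reticulum, lay between 0.0270 and 0.109 FPKM, which was 1 to 4 fragments per library.

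BaF3 is a murine haematopoietic line, and BaF3-T315I cells stably carry T315I-mutated BCR-ABL, the form of the leukemia kinase that resists imatinib. I13 is a histone deacetylase inhibitor. All 6 samples were of this line, 3 controls and 3 samples given I13 (1.1 µM) over 48 h, and the sources used here give neither the vehicle nor the time of the controls. Nothing in the labels says that the 3 samples of a group came from separate cultures, so p-values measure the spread between these samples, which may be technical.

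NRF2, the product of Nfe2l2, is a transcription factor that KEAP1 holds at a low level until oxidants or electrophiles modify KEAP1. It then drives genes for glutathione synthesis, for quinone and haem breakdown, for thioredoxin recycling and for NADPH supply. Glutathione and thioredoxin are a pair of thiol systems that reduce peroxides and oxidised proteins, and both are recharged with NADPH, much of it from the pentose phosphate pathway. Ferritin stores iron in a form that does not feed radical chemistry.

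The values were FPKM, in which fragments are scaled by gene length in kilobases and by library size, so that levels of different genes can be set side by side per length. For 100% of the genes a length was found at which every sample held a whole number of fragments within 0.03. Values near 0 can meet this with 0 fragments at the shortest length tried, as for Bach2, Mgst1 and Slc40a1. The 100% is therefore no measure of recovery for such genes. The libraries held 16762119 to 17722950 fragments. Limma was run on log2(FPKM + 0.1) for 12163 genes, those averaging at least 0.5 FPKM, and a gene was called at a Benjamini-Hochberg adjusted p below 0.05 and a log2 fold change of at least 0.58 in either direction. A difference on this scale understates the change of low genes. The markers of the line that set its interleukin-3 response were present, with Csf2rb at 239 to 463 FPKM in control and 448 to 839 FPKM after I13. Summed markers of the line, led by Csf2rb and Csf2rb2, lay at 472 to 929 FPKM in control and 951 to 1699 FPKM after I13. The B lineage genes Cd79a and Cd79b lay at 14.05 to 27.48 and 3.57 to 6.94 FPKM over the samples. The pro-B genes Igll1, Vpreb1, Ebf1 and Pax5 lay at or near 0 in every sample. Summed erythroid markers, led by Klf1, lay at 10.8 to 16.6 FPKM in control and 21.2 to 28.8 FPKM after I13. Epor, at 3.06 to 5.03 FPKM over the samples, had a log2 fold change of 0.06, while Klf1 and Hba-a1 had 0.82 and 2.40. Hba-a1 lay below Epor in every control. Monocyte and macrophage markers, led by Adgre1, lay at 23.0 to 46.4 FPKM and 53.0 to 87.2 FPKM, while Csf1r and Mrc1 stayed near 0 and the T lineage sum did not exceed 0.376 FPKM. The part of these shifts in the results was not tested, and in bulk RNA a change in the share of cells and a change in RNA per cell cannot be told apart.

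No antioxidant gene was called between control and I13. Of the 36 tested, 20 had a positive and 16 a negative log2 fold change after I13, taken on the mean of log2(FPKM + 0.1), with a median log2 fold change of 0.08, beside -0.01 over all genes tested. The test of all genes called 5 of them, or 0.0411%. At an unadjusted p below 0.05, limma listed 1 higher member, Ftl1, where the share over all genes was 7.79%, and 4 lower members, Mgst2, Txnrd2, Pgd and Tkt, where that share was 10.8%. The members' own shares were 2.78% and 11.1%, below the background for the higher genes and near it for the lower ones.

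Same-numbered control and I13 samples deviated together over all genes, so the comparison was also fitted with the replicate number as a block. In that fit Ftl1 rose and Mgst2 fell beyond both thresholds, which 1.36% and 0.526% of all genes also did. Without the fold threshold, Tkt fell as well, giving 1 higher and 2 lower members at an adjusted p below 0.05. These were 2.78% and 5.56% of the members tested, where the background was 1.75% and 1.24%. At an unadjusted p below 0.05 the block listed 10 higher and 7 lower members. These were 27.8% and 19.4% of the members tested, above the 13.2% and 14.8% of all genes. Voom on the recovered fragments with the block put 4 higher members, Hmox1, Gpx1, Ftl1 and Fth1, at an adjusted p below 0.05. It did so for 4 lower members, Mgst2, Txnrd2, Pgd and Tkt. These were 11.1% of the members each way, beside 6.6% and 5.78% of all genes. Whether the members' shares differ from the background was not tested.

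The control and I13 ranges did not overlap for 7 members. Gsto1 and Txn1 were higher after I13, or 5.56% of the members against 9.82% of all genes. Mgst2, Txnrd2, Prdx6, Pgd and Tkt were lower, or 13.9% against 15.4%. Within pairs of the same replicate number, I13 was higher in all 3 pairs for 13 members and lower in all 3 for 10. These were 36.1% and 27.8% of the members, beside 24.1% and 27.3% of all genes.

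**Figure D1:**
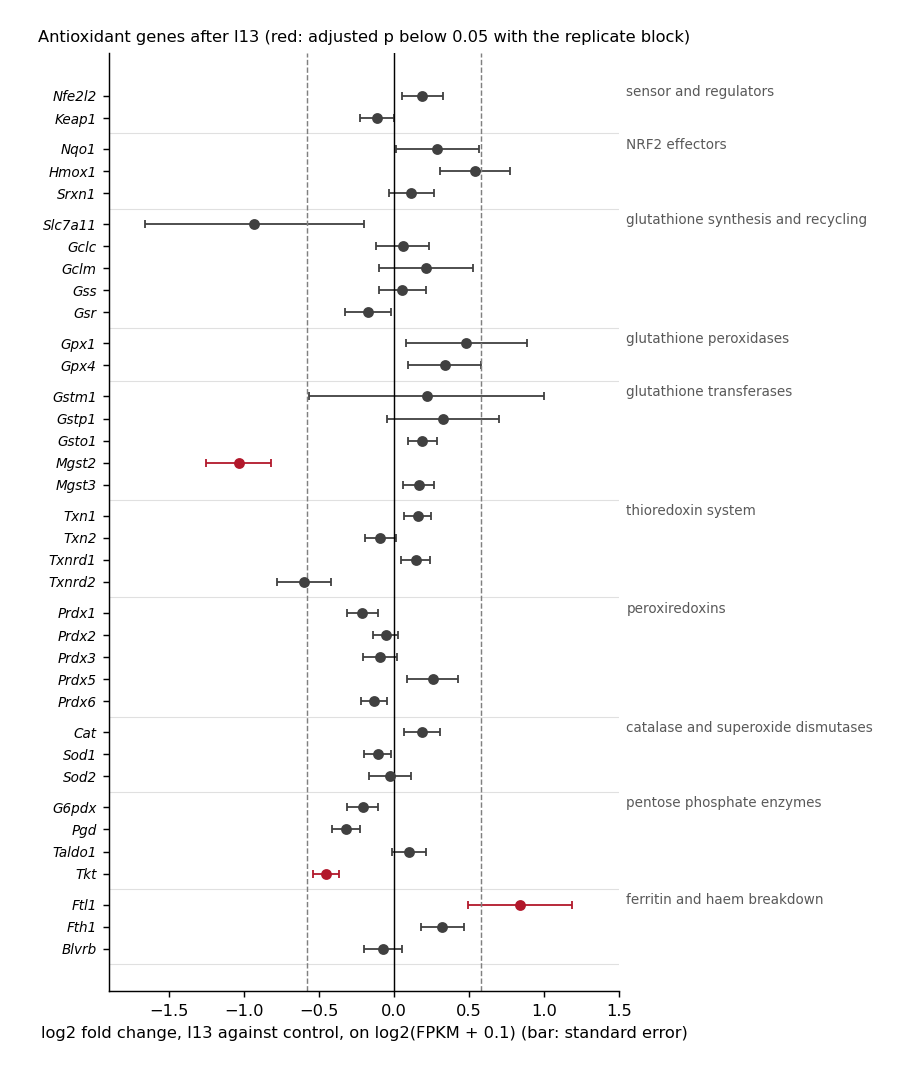
The horizontal axis gives the log2 fold change of I13 against control on log2(FPKM + 0.1) for the 36 tested genes, grouped by role, with bars of 1 standard error from the fit without the block and dashed lines at the fold threshold of 0.58. Red marks the 3 genes with an adjusted p below 0.05 in the fit with the replicate block: Mgst2 and Tkt lie left of 0 and Ftl1 right of it.

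Neither gene of the sensor pair passed the test. Nfe2l2 stood at 16.3, 20.1 and 19.8 FPKM in control, in the order of replicates 1, 2 and 3 as in all such lists, and at 18.1, 23.4 and 22.6 FPKM after I13. The groups overlapped, although each I13 sample was above the control of its number, and the log2 fold change was 0.19 (SE 0.14, adjusted p = 0.490 by limma). Keap1, the adaptor that marks NRF2 for degradation, stood at 11.4, 13.4 and 12.2 FPKM in control and 10.2, 12.5 and 11.5 FPKM after I13. Here each I13 sample was below its control, again with overlap, and the log2 fold change was -0.11 (SE 0.11, adjusted p = 0.625). With the block the adjusted p was 0.157 for Nfe2l2 and 0.376 for Keap1.

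The 3 genes filed here as NRF2 effectors, Nqo1, Hmox1 and Srxn1, had higher means after I13, with a median log2 fold change of 0.29. None passed the test. Genes of glutathione synthesis, thioredoxin recycling and NADPH supply were filed under other roles and went both ways. Their log2 fold changes included 0.21 for Gclm, 0.14 for Txnrd1, -0.21 for G6pdx and -0.32 for Pgd. Nqo1, a quinone reductase that is a textbook NRF2 target, stood at 3.34, 5.59 and 3.91 FPKM in control and 3.95, 7.45 and 4.60 FPKM after I13. Replicate 2 was highest in both groups, the groups overlapped, and the log2 fold change was 0.29 (SE 0.27, adjusted p = 0.603). This value, which is also the median of the 3 effectors, was 0.03 without I13 replicate 2, 0.13 without control replicate 1, 0.48 without I13 replicate 1 and 0.50 without control replicate 2. Srxn1, which reactivates over-oxidised peroxiredoxins, stood at 19.9, 24.4 and 25.2 FPKM in control and 20.8, 27.3 and 27.5 FPKM after I13. Replicate 1 was lowest in both groups, and the log2 fold change was 0.12 (SE 0.15, adjusted p = 0.712).

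Hmox1 encodes haem oxygenase 1, which opens the haem ring and frees iron. It stood at 44.7, 32.6 and 52.7 FPKM in control and 48.6, 58.9 and 82.6 FPKM after I13, or 43.3 ± 10.1 against 63.4 ± 17.4 FPKM (mean ± SD, n = 3). The groups overlapped because I13 replicate 1 was below control replicate 3, and the difference within pairs was 0.12, 0.85 and 0.65 on the log2 scale for replicates 1, 2 and 3. The log2 fold change of 0.54 (SE 0.24) did not pass limma's test, with an adjusted p of 0.277 and 0.0911 with the block. Without both samples of replicate 1 the blocked log2 fold change was 0.75 (adjusted p = 0.0481), which met both thresholds. Voom with the block gave 0.54 with an adjusted p of 0.0293, short of the fold threshold, and leaving out single samples gave 0.33 without I13 replicate 3 to 0.71 without I13 replicate 1.

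**Figure D2:**
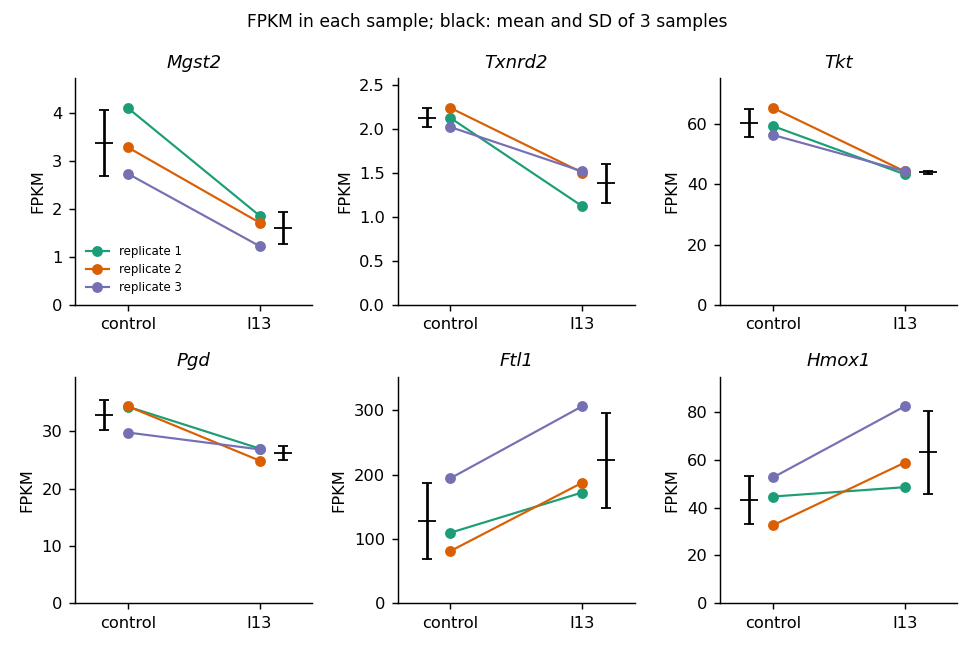
Each panel gives the FPKM of 1 gene in the 3 control and 3 I13 samples, with lines joining samples of the same replicate number and black bars for the mean and SD of 3 samples, on axes that start at 0. Mgst2, Txnrd2, Tkt and Pgd lie lower in all 3 I13 samples than in any control, while the ranges of Ftl1 and Hmox1 overlap and every line goes up.

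Genes of glutathione synthesis followed the replicate number more than the treatment. Gclc and Gclm, the catalytic and modifier subunits of the rate-limiting ligase, differed by log2 fold changes of 0.06 (SE 0.17, adjusted p = 0.886) and 0.21 (SE 0.32, adjusted p = 0.750) by limma. Gclc stood at 18.2, 25.5 and 18.0 FPKM in control and 21.0, 24.8 and 18.1 FPKM after I13. Gclm stood at 24.4, 49.2 and 33.0 FPKM in control and 33.3, 59.0 and 31.4 FPKM after I13. For both subunits the highest sample of each group was replicate 2 and the ranges overlapped. Gss, which adds glycine to complete glutathione, had a log2 fold change of 0.06, and Gsr, which reduces oxidised glutathione with NADPH, had one of -0.18 with each I13 sample below its control. Neither passed either fit, and Gsr had an adjusted p of 0.570 without and 0.157 with the block.

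Slc7a11, the cystine carrier that supplies cysteine for glutathione, was the member tested at the lowest level. It stood at 1.02, 1.09 and 0.387 FPKM in control and 0.0611, 0.904 and 0.476 FPKM after I13, which was 251, 267 and 95 fragments against 15, 211 and 116. I13 replicate 1 lay far below the other 5 samples, which overlapped between the groups, and the differences within pairs were -2.79, -0.24 and 0.24. By limma the log2 fold change was -0.93 with an SE of 0.73 and an adjusted p of 0.525. It shrank to -0.185 without I13 replicate 1 and grew to -1.505 without I13 replicate 2.

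Both glutathione peroxidases had higher means after I13, with each I13 sample above its own control. Gpx4, the selenoenzyme that reduces lipid peroxides in membranes, stood at 139, 114 and 210 FPKM in control and 152, 190 and 233 FPKM after I13, and the groups overlapped. Its log2 fold change was 0.34 (SE 0.24, adjusted p = 0.491, and 0.170 with the block). Gpx1, the abundant cytosolic peroxidase, stood at 323, 118 and 276 FPKM in control and 343, 209 and 401 FPKM after I13, with replicate 2 lowest in both groups. Its log2 fold change of 0.48 (SE 0.40) had an adjusted p of 0.552 by limma, 0.104 with the block and 0.0400 under voom with the block. Gpx1 and the other members named outside the rule given in the methods were picked after their values were seen.

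Mgst2, a microsomal glutathione transferase that also has peroxidase activity, showed the largest relative fall among the members. It stood at 4.10, 3.28 and 2.73 FPKM in control and 1.85, 1.71 and 1.22 FPKM after I13, from 269, 214 and 178 fragments against 121, 106 and 79. Every I13 sample was below every control, and the pairs differed by -1.10, -0.90 and -1.10 on the log2 scale. Group means were 3.37 ± 0.690 and 1.59 ± 0.333 FPKM (SD, n = 3). Limma gave a log2 fold change of -1.04 (SE 0.22, unadjusted p = 0.00194), with an adjusted p of 0.109 that became 0.0384 with the block. With any pair left out the blocked adjusted p ranged from 0.0838 to 0.291, at a log2 fold change of -1.10 without replicate 2.

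The other 4 transferases tested had positive log2 fold changes, none of which passed the test. Gsto1, an omega-class transferase, lay above the control range in every I13 sample, at 110, 104 and 101.1 FPKM against 96.3, 98.4 and 82.3 FPKM in control, but its log2 fold change of 0.19 (SE 0.10) had an adjusted p of 0.338. Mgst3, a relative of Mgst2, differed by 0.16 (SE 0.10, adjusted p = 0.433). Gstm1, a mu-class transferase, varied more between replicate numbers than any other member, at 3.26, 0.924 and 8.55 FPKM in control and 3.39, 1.82 and 6.86 FPKM after I13. Its log2 fold change was 0.22 with an SE of 0.78, whereas the mean FPKM was lower after I13 (4.24 ± 3.91 in control and 4.03 ± 2.58 after I13; SD, n = 3) and voom with the block gave -0.03. Reads may be shared with the related Gstm4, which lay at 6.55 to 10.3 FPKM. Gstp1, the pi-class enzyme, had a log2 fold change of 0.33 (SE 0.38) with pairs that went both ways, at 0.24, 1.46 and -0.73.

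In the thioredoxin system both cytosolic members had higher means after I13 and both mitochondrial members lower ones. None passed limma's test with or without the block. Txn1, the cytosolic thioredoxin, stood at 285, 292 and 256 FPKM in control and 328, 303 and 299 FPKM after I13, with no overlap and a log2 fold change of 0.16 (SE 0.09, adjusted p = 0.381 by limma). Txnrd1, the cytosolic reductase that recharges it, stood at 38.1, 34.1 and 36.1 FPKM in control and 43.3, 39.6 and 36.9 FPKM after I13. Each I13 sample exceeded its control, the ranges overlapped, and the log2 fold change was 0.14 (SE 0.10, adjusted p = 0.45). Txn2, the mitochondrial thioredoxin, had a log2 fold change of -0.09 (SE 0.10, adjusted p = 0.675), with pairs that went both ways, at -0.19, -0.26 and 0.18.

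Txnrd2, the mitochondrial thioredoxin reductase, stood at 2.13, 2.24 and 2.02 FPKM in control and 1.12, 1.51 and 1.52 FPKM after I13. All 3 I13 samples were below all controls, with means of 2.13 ± 0.109 and 1.38 ± 0.225 FPKM (SD, n = 3). By limma it differed by -0.60 on the log2 scale (SE 0.18, unadjusted p = 0.0117), which did not pass after adjustment, at 0.160 without and 0.104 with the block. Voom with the block gave 0.0422, and without I13 replicate 1, the lowest sample, the log2 fold change was -0.47. Whether Txnrd1 and Txnrd2 differ in their response was not tested.

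Of the 5 peroxiredoxins tested, thiol enzymes that consume hydrogen peroxide, 4 had lower means after I13 and none passed the test. Prdx1 and Prdx6, which are mainly cytosolic, had log2 fold changes of -0.21 (SE 0.10, adjusted p = 0.321) and -0.13 (SE 0.09, adjusted p = 0.432), each with every I13 sample below its control. For Prdx6 the ranges of 72.5 to 82.8 FPKM in control and 68.4 to 72.2 FPKM after I13 did not overlap. Prdx2 and the mitochondrial Prdx3 differed by -0.06 and -0.09 on the log2 scale with overlapping groups. Prdx5 went the other way, with a log2 fold change of 0.26 (SE 0.17, adjusted p = 0.45, and 0.0894 with the block) and a higher value in all 3 pairs.

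Catalase and the superoxide dismutases did not pass the test. Cat, the peroxisomal enzyme that splits hydrogen peroxide, stood at 43.0, 53.8 and 53.9 FPKM in control and 56.2, 61.9 and 53.0 FPKM after I13. The 2 groups overlapped through I13 replicate 3, and the log2 fold change was 0.19 (SE 0.12, adjusted p = 0.430). Sod1, the cytosolic copper and zinc enzyme, differed by -0.11 and Sod2, its mitochondrial manganese counterpart, by -0.03, with SEs of 0.09 and 0.14.

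Of the 4 pentose phosphate enzymes, 3 had lower means after I13, with a median log2 fold change of -0.27 over the 4. Tkt, the transketolase of the non-oxidative branch, stood at 59.5, 65.5 and 56.5 FPKM in control and 43.4, 44.4 and 44.4 FPKM after I13. The groups were far apart, and the I13 samples lay within a narrow band, with means of 60.5 ± 4.59 and 44.1 ± 0.579 FPKM (SD, n = 3). Tkt differed by -0.45 on the log2 scale (SE 0.09, unadjusted p = 0.00113), with an adjusted p of 0.108 by limma and 0.0459 with the block. Tkt stayed below the fold threshold throughout. With the block the adjusted p was 0.0537 once the trend with gene length was removed, at a log2 fold change of -0.47, and 0.0838 to 0.311 with any pair left out, at -0.51 to -0.40.

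Pgd, 6-phosphogluconate dehydrogenase and the last NADPH-yielding step of the oxidative branch, stood at 34.3, 34.4 and 29.8 FPKM in control and 27.0, 24.9 and 26.9 FPKM after I13. All I13 samples were below all controls, at 26.3 ± 1.18 against 32.9 ± 2.63 FPKM (SD, n = 3). Pgd differed by -0.32 on the log2 scale (SE 0.10, unadjusted p = 0.0115, adjusted p = 0.159 by limma and 0.0912 with the block), and voom with the block gave an adjusted p of 0.0423. G6pdx, which opens the oxidative branch, differed by -0.21 (SE 0.10, adjusted p = 0.315, and 0.113 with the block), lower in all 3 pairs. Taldo1, the transaldolase of the non-oxidative branch, differed by 0.10 (SE 0.11) with overlapping groups.

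Ftl1 had the largest increase among the members, and Fth1 was the most abundant of them. Ftl1, the ferritin light chain, stood at 109, 80.8 and 194 FPKM in control and 172, 187 and 307 FPKM after I13, or 128 ± 59.0 against 222 ± 73.6 FPKM (SD, n = 3). Control replicate 3 was above I13 replicates 1 and 2, so the ranges overlapped, but each I13 sample was above its own control by 0.65, 1.21 and 0.66 on the log2 scale. Its log2 fold change of 0.84 had an SE of 0.34 and an adjusted p of 0.255 by limma, and with the block an SE of 0.12 and an adjusted p of 0.0447. With single samples left out the log2 fold change ran from 0.56 without control replicate 2 and 0.58 without I13 replicate 3 to 1.00 without I13 replicate 1 and 1.19 without control replicate 3. With any pair left out the blocked adjusted p was 0.0650 to 0.227. The near-copy Ftl1-ps1 stood at 46.2, 32.8 and 77.2 FPKM in control and 65.1, 76.2 and 122 FPKM after I13, and how reads were divided between the copies is not given, so the level of Ftl1 is uncertain.

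Fth1, the heavy chain that carries the ferroxidase activity, stood at 897, 905 and 988 FPKM in control and 932, 1272 and 1319 FPKM after I13. I13 replicate 1 lay within the control range and I13 replicates 2 and 3 above it. Fth1 had a log2 fold change of 0.32 (SE 0.14, adjusted p = 0.285 by limma and 0.109 with the block), and voom with the block gave 0.0499. Blvrb, a biliverdin reductase, stood at 11.6, 11.8 and 13.5 FPKM in control and 10.4, 11.3 and 13.5 FPKM after I13, with replicate 3 highest in both groups and a log2 fold change of -0.07 (SE 0.12, adjusted p = 0.789).

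Much of the spread of these genes lay between replicate numbers. The sum of squares of log2(FPKM + 0.1) over the 6 samples was divided into a part between control and I13, a part between replicate numbers and a remainder. The part between replicate numbers exceeded 50% for 17 of the 36 members, beside 42.3% of all genes, and exceeded 80% for 9 members, beside 13.2% of all genes. The 9 were Nqo1, Srxn1, Gclc, Gclm, Gss, Gsr, Gstm1, Sod2 and Blvrb, so 4 of the 5 genes of glutathione synthesis and recycling were among them, with 92.0% for Gclc, 87.2% for Gclm, 90.6% for Gss and 80.3% for Gsr. Because members share their samples, these counts describe the list and carry no test.

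The replicate numbers did not order the genes in one way. Among the 17 members with over 50% between replicate numbers, the mean of the same-numbered samples was highest in replicate 1 for 3 genes, in replicate 2 for 8 and in replicate 3 for 6, and it was lowest in replicate 1 for 8, in replicate 2 for 4 and in replicate 3 for 5. Nfe2l2, Keap1, Nqo1 and Gclm had their highest mean in replicate 2 and their lowest in replicate 1. Gpx1 and Gstm1 had their lowest in replicate 2. The labels do not say what a replicate number stands for.

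**Figure D3:**
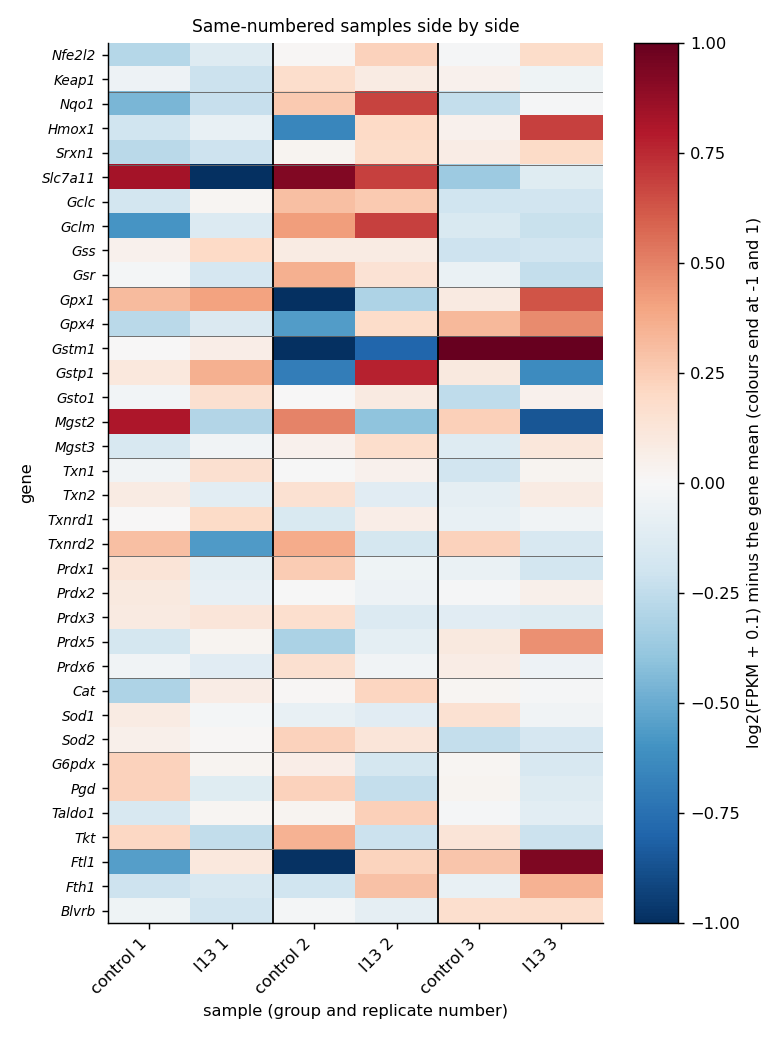
Rows are the 36 tested genes in the order of their roles and columns the 6 samples, with control and I13 of each replicate number side by side; colour gives log2(FPKM + 0.1) minus the gene mean, ending at -1 and 1. Nqo1 and Gclm are highest in the pair of replicate 2 and Gstm1 in the pair of replicate 3, whereas Mgst2 and Tkt change colour within each pair.

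The part between control and I13 exceeded 50% for 9 members, beside 28.9% of all genes. It was 92.8% for Tkt, 82.4% for Mgst2, 82.3% for Txnrd2 and 80.8% for Pgd, the 4 members with the lowest unadjusted p. For Ftl1 it was 46.3%, with 49.2% between replicate numbers and 4.5% left over. Txn2, Gstp1 and Prdx2 had 80.5%, 74.6% and 67.2% in the remainder, which neither the treatment nor the replicate number took up.

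**Figure D4:**
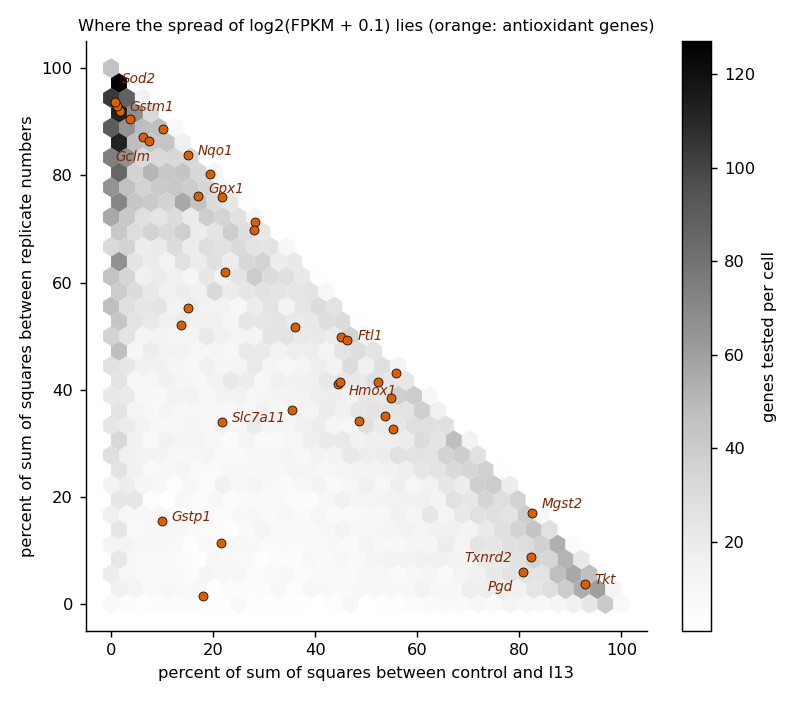
The horizontal axis gives the percent of each gene's sum of squares between control and I13 and the vertical axis the percent between replicate numbers, with all 12163 genes as grey cells and the 36 antioxidant genes in orange. Tkt, Mgst2, Txnrd2 and Pgd lie at the lower right, and Gclm, Gstm1, Sod2 and Nqo1 at the upper left.

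A wider list of 117 genes of the same systems was read beside the members, of which 106 had a row and 86 were tested. It held 44 genes with a positive and 42 with a negative log2 fold change, with a median log2 fold change of 0.02. Limma without the block called none and listed 9 higher and 11 lower genes at an unadjusted p below 0.05. These were shares of 10.5% and 12.8%, beside 7.79% and 10.8% of all genes. With the block, 5 higher and 1 lower gene had an adjusted p below 0.05, at shares of 5.81% and 1.16% beside 1.75% and 1.24% of all genes. The genes named from it are those with an adjusted p below 0.05 in either fit and the extremes among those with an unadjusted p below 0.05 and a mean of at least 1 FPKM. The cut on the mean left out Nadk2, at 0.645 FPKM, which had the largest relative fall of the wider list. Its log2 fold change was -0.80 (SE 0.34, adjusted p = 0.267 by limma and 0.168 with the block).

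Txnip, which binds thioredoxin and limits its activity, had the largest increase of the wider list. It stood at 39.4, 24.6 and 35.4 FPKM in control and 67.7, 53.6 and 60.7 FPKM after I13, with no overlap between the groups. The log2 fold change was 0.89 (SE 0.18, adjusted p = 0.109 by limma and 0.0322 with the block). Selenom, a selenoprotein of the endoplasmic reticulum with a thioredoxin-like fold, stood at 14.9, 8.35 and 14.2 FPKM in control and 27.4, 13.5 and 19.7 FPKM after I13. Its ranges overlapped, and the log2 fold change of 0.68 (SE 0.31) had an adjusted p of 0.289 and, with the block, of 0.0447. With pairs left out the blocked adjusted p was 0.0481 to 0.227 for Txnip, below 0.05 without replicate 1, and 0.0788 to 0.306 for Selenom.

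A pair of genes of lipid and aldehyde handling and 1 gene of iron handling were also elevated with the block. Acsl4, which loads polyunsaturated fatty acids for membrane lipids, stood at 35.6, 32.6 and 35.6 FPKM in control and 62.8, 47.8 and 58.5 FPKM after I13. Ptgr1, a reductase of lipid-derived enals and prostaglandins, stood at 6.49, 6.37 and 8.16 FPKM in control and 11.3, 10.9 and 11.2 FPKM after I13. All I13 samples exceeded all controls for both genes, with log2 fold changes of 0.69 (SE 0.12) and 0.67 (SE 0.12), an adjusted p of 0.0989 for each by limma, and 0.0361 and 0.0451 with the block. Ncoa4, the receptor that brings ferritin to the lysosome, stood at 27.2, 37.3 and 47.1 FPKM in control and 49.9, 54.3 and 65.7 FPKM after I13, without overlap, at a log2 fold change of 0.63 (SE 0.20, adjusted p = 0.182 and, with the block, 0.0451). With any pair left out the blocked adjusted p was above 0.05 for all 3, at 0.0566 to 0.227 for Acsl4, 0.0788 to 0.311 for Ptgr1 and 0.0642 to 0.304 for Ncoa4.

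Park7 was the lower gene of the wider list that passed with the block. Park7, a redox-sensitive chaperone, stood at 114, 108 and 86.0 FPKM in control and 86.0, 86.4 and 64.8 FPKM after I13, where I13 replicate 2 lay above control replicate 3, so that the ranges overlapped. Its log2 fold change was -0.38 (SE 0.15, adjusted p = 0.257 by limma and 0.0472 with the block). The blocked adjusted p was 0.0565 once the length trend was removed and 0.0892 to 0.306 with any pair left out. Mthfd2, a mitochondrial folate enzyme that yields reduced pyridine nucleotide, stood at 120, 87.9 and 61.6 FPKM in control and 38.2, 60.3 and 64.2 FPKM after I13, and the ranges overlapped. The log2 fold change was -0.71 (SE 0.28) with an adjusted p of 0.240 without and 0.201 with the block. Fbxl17, an F-box protein of the ubiquitin system, differed by -0.38 (SE 0.12, adjusted p = 0.176 and, with the block, 0.107).

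**Figure D5:**
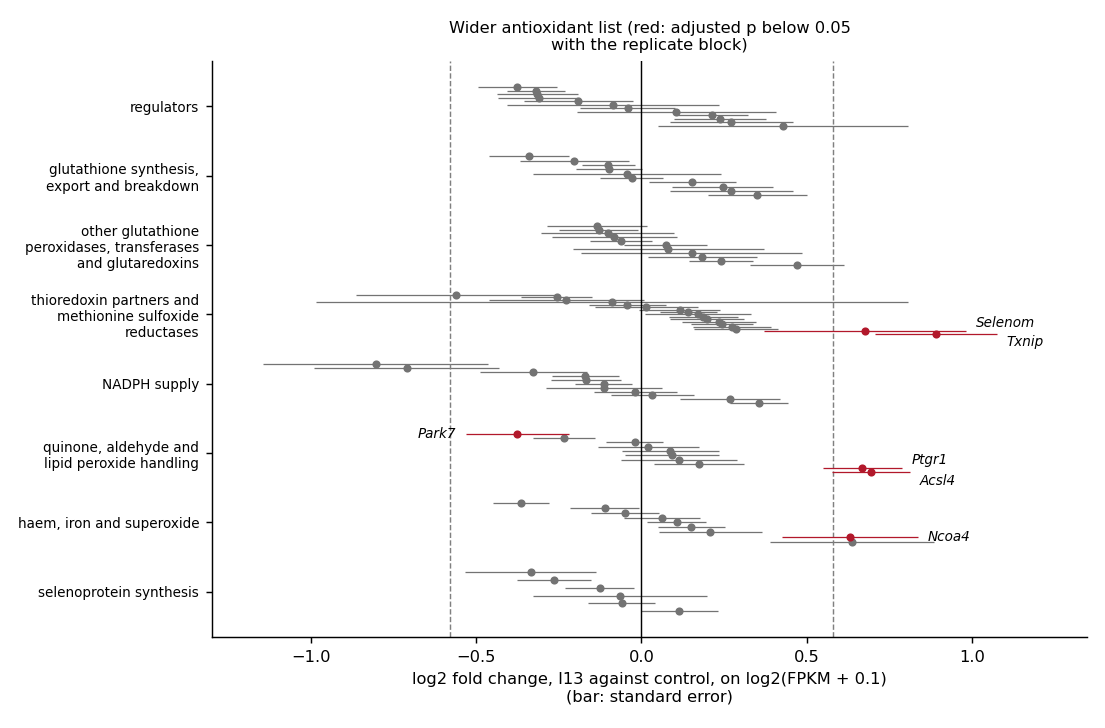
The horizontal axis gives the log2 fold change of I13 against control on log2(FPKM + 0.1) for the 86 tested genes of the wider list, in rows by role, with bars of 1 standard error and dashed lines at the fold threshold of 0.58. Red marks the 6 genes with an adjusted p below 0.05 in the fit with the replicate block: Txnip, Selenom, Acsl4, Ptgr1 and Ncoa4 at 0.63 to 0.89, and Park7 at -0.38.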

How the data were processed

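The 6 libraries were stranded mRNA libraries from Trizol RNA. The deposited table gave FPKM values per mouse gene, made by the authors per sample, and a scaling between samples is not given in the sources used here. The submitters' processing notes name Trimmomatic, HISAT2, Cufflinks and HTSeq, without versions or roles, and hg38, and the labels call the organism human, whereas the gene identifiers and the paper are murine; mouse genes were assumed. Of the columns, 0 were left without a sample. No mouse genome or sequence was used here.

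Whole fragments, gene lengths and library totals were recovered from the FPKM, except where values near 0 fitted 0 fragments at the shortest length tried. Between 99.45% and 99.49% of each total fell on listed genes. Intervals were not computed for single values. The comparison used limma 3.58.1 in R 4.3.3 (eBayes with a trend, two-sided, Benjamini-Hochberg over 12163 genes) on log2(FPKM + 0.1), for 3 control and 3 I13 samples, grouped by the treatment label. Same-numbered samples deviated together (correlations across genes of 0.15, 0.30 and 0.22 for replicates 1, 2 and 3, and -0.26 to 0.05 for different numbers), which, with the numbers in the labels, was taken as pairing. Scripts were tested on simulated data. Alternatives were other pseudocounts, filters and scalings, no trend, the replicate block, voom on fragments, removal of a length trend by loess (span 0.5), and leaving out samples or pairs.

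The members and lists were chosen with earlier results of these data known. Every sample's value is given for members with an unadjusted p below 0.05 without the block or an adjusted p below 0.05 with it, and for Nfe2l2, Keap1, Nqo1, Hmox1, Srxn1, Slc7a11, Gclc, Gclm, Txnrd1, Gpx4, Cat, Ftl1, Fth1 and Blvrb. From the wider list the rule took genes with an adjusted p below 0.05 in either fit and the 3 highest and 3 lowest log2 fold changes among those with an unadjusted p below 0.05 and a mean of at least 1 FPKM. Plots used matplotlib 3.10.9 (Python 3.11.15).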

Additional observations from a re-analysis of the deposited data

How the results depend on the processing

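With 3 samples a group the count of calls followed the model. Over all genes, 4 were called elevated and 1 decreased. The replicate block, which pairs same-numbered samples, gave 166 and 64, voom with the block 374 and 128, and the length trend removed with the block 174 and 54. Elevated calls fell to 2 when the pseudocount was 0.01, under median-ratio scaling and once the length trend was removed, and decreased calls were 0 under each of these and 3 with no filter and with no trend. Leaving out samples or pairs gave 0 to 78 elevated and 0 to 5 decreased calls.

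Among the members, where 0 were called either way, the block, voom with the block and the length trend removed with the block each called 1 elevated gene, and 1, 2 and 1 decreased genes. Leaving out samples or pairs gave 0 to 1 elevated, the 1 being Hmox1 in the block without replicate 1. In the wider list, also at 0, these 3 fits called 5, 6 and 5 elevated genes, voom with the block 1 decreased gene, and the leave-outs 0 to 1 elevated. Members with an unadjusted p below 0.05 were 1 elevated and 4 decreased. The elevated count was 0 with no filter, with median-ratio scaling and with no trend, 3 as TPM, 2 with voom, 5 with the length trend removed, 10 with the block, 8 with voom and the block, 12 with the length trend removed and the block, and 0 to 6 over the leave-outs. The decreased count was 7 with the block, also under voom, and 2 to 5 over the leave-outs. Counts over all genes rose with the model too. They were 947 higher and 1319 lower without the block, 1607 and 1802 with it, and 1872 and 1871 under voom with the block. For the other fits they are not given here.

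Over 18 named members and 21 alternatives, with no value for Slc7a11 at a mean of at least 1 FPKM, 357 fold changes kept their sign and their side of the adjusted p of 0.05, whatever their size, 13 passed that p only under the alternative, and 7 changed sign. The sign changes were Gclc at -0.021, -0.028, -0.058 and -0.015 without control replicate 1, control replicate 3, I13 replicate 2 and, with the block, replicate 1, Gclm at -0.027 and -0.074 without control replicate 1 and I13 replicate 2, and Blvrb at 0.007 without I13 replicate 1. Over all samples or pairs left out, the log2 fold change ranged from -0.058 to 0.223 for Gclc, from -0.074 to 0.478 for Gclm and from -0.178 to 0.007 for Blvrb. The causes were not tested. Median log2 fold changes ran from -0.04 to 0.04 when genes were split into 4 bins by length, shortest to longest. These medians do not bound the effect on a single gene. Removing the length trend moved Txn1 from 0.157 to 0.218 and Sod1 from -0.109 to -0.058, which limits how closely small differences can be read.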
